A study of Arabidopsis thaliana with 9 samples.

Results

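LHY, CCA1 and the REVEILLE genes RVE1 to RVE8 encode a family of 10 single-MYB transcription factors of Arabidopsis thaliana, and they were taken by locus identifier from a deposited table of 32833 genes. All 10 were found, and all 10 passed the filter on low counts with 19139 other genes. RNA was sequenced from seedlings 7 days after germination, at 14 h after lights on in days of 16 h light and 8 h darkness, on soil at 22 °C. There were 3 genotypes with 3 replicates each, all labelled as Col-0 in background. The wild type (WT) was Col-0. In 35S:CO the flowering regulator CONSTANS (CO) was expressed from the 35S promoter of cauliflower mosaic virus, a promoter that works in nearly every tissue. In SUC2:HA:CO (co-10), called SUC2:CO here, an HA-tagged CO was driven by the promoter of SUC2, a sucrose transporter gene of phloem companion cells, and the label adds the co-10 allele, so that this line differed from Col-0 in both the transgene and co-10. Which independent insertion lines were used was not given in the sources used here, and each transgene was represented by a single labelled line. The labels name whole seedlings. Within such bulk samples, a change in the number of cells that express a gene and a change in RNA per cell cannot be told apart.

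The family sits at the core of the plant circadian clock. LHY and CCA1 are closely related repressors whose RNA peaks around dawn, and they hold down evening genes through a promoter sequence called the evening element. RVE8, RVE4 and RVE6, with RVE3 and RVE5 of the same subgroup, bind the same element, and RVE8 is known to activate evening genes together with the LNK coactivators. RVE1, RVE2 (also called CIR1) and RVE7 (also called EPR1) form another subgroup, known mainly for clock outputs such as hypocotyl growth, with RVE1 acting on auxin synthesis and seed dormancy. The pseudo-response regulators PRR9, PRR7, PRR5 and TOC1 in turn repress CCA1 and LHY through the day and evening, so the wild-type sampling time falls when LHY and CCA1 RNA is usually low.

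Upstream sequences of the family are shown because 7 of the 10 genes share one sequence in the 1000 bases before their start, 6 of them within 200 bases, that most genes lack. The G-box CACGTG, a palindrome known as a binding site of bHLH and bZIP factors such as the PIFs and HY5, lay within 1000 bases before the annotated start of 7 of 10 family genes and of 14.8% of 27443 protein-coding genes. Within 200 bases it was present in 6 of 10 family genes and in 5.64% of all. The 8 matches are given below in windows of 30 bases, in the direction of transcription, with the G-box in capitals. The sequences and coordinates are from the RefSeq assembly TAIR10.1.
LHY, chr1:37934-37963, minus strand: ctacaatatcacCACGTGtcgatctgcgat
CCA1, chr2:19245386-19245415, plus strand: tagtgtatcagaCACGTGtcgacaaactgg
RVE1, chr5:5693086-5693115, minus strand: gagaaagagcgaCACGTGgcaaagatggac
RVE2, chr5:14753234-14753263, minus strand: gaagaaatcctcCACGTGtcattagcatct
RVE3, chr1:190312-190341, plus strand: acgatcgtattcCACGTGgcaatttatgtg
RVE5, chr4:535134-535163, plus strand: acgagaccctaaCACGTGtaaaggaaacaa
RVE8 distal, chr3:2945339-2945368, plus strand: cgtgaaaacaaaCACGTGcgcaccgggaaa
RVE8 proximal, chr3:2945413-2945442, plus strand: ccgttggatgcgCACGTGtgaaatgccata

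The G-box ended 75 bases before the start of LHY, 188 before CCA1, 106 before RVE1, 158 before RVE2, 79 before RVE3 and 47 before RVE5. Only the matches of RVE8, at 883 and 809 bases, lay farther out. The 200 bases before RVE3 overlap the annotated gene AN, a neighbour on the same strand that also runs 65 bases into RVE3. Outside the motif the windows had little in common: between 2 different genes, from 1 to 9 of the 24 flanking bases were equal at the same position. For LHY and CCA1, the 2 genes of the family with the closest functions, the 200 bases before the start were as follows, again with the G-box in capitals.
LHY, chr1:37872-38071, minus strand: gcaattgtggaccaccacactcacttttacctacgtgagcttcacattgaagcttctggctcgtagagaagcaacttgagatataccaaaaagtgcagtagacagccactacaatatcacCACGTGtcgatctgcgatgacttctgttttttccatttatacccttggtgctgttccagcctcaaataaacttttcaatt
CCA1, chr2:19245391-19245590, plus strand: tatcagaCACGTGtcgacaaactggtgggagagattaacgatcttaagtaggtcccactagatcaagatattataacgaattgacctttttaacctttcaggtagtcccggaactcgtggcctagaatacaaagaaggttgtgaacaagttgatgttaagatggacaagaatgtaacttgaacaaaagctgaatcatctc

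Other clock and CO motifs were searched on both strands in the same 1000 bases. The evening element AAAATATCT, through which the family itself acts, was found before 1 of the 10 genes, RVE7, and before 7.24% of all genes. RVE7 held it 2 times, once in each orientation, at 309 and 42 bases before its start, with the element in capitals here.
RVE7 distal, chr1:6308542-6308570, minus strand: aagactaaagAGATATTTTgaaatcgaat
RVE7 proximal, chr1:6308275-6308303, minus strand: taatcacaaaAAAATATCTtcttcataat
The related CCA1-binding site AAAAATCT was found before LHY, RVE2 and RVE6, 3 of 10, against 21.1% of all genes. A CO-responsive element, the sequence to which the CO protein binds in the FT promoter, was searched with a pair of spacers. TGTGNNATG was found before CCA1, RVE8, RVE6 and RVE3, 4 of 10 against 13.7% of all genes, and the variant whose spacer is 1 base longer before RVE8 and RVE4, 2 of 10 against 16.5%. In RVE8 the TGTGNNATG match overlaps the proximal G-box. None of these CO-responsive matches lay within 200 bases of the start. Matches are descriptions of letters and not evidence of binding.

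**Figure D1:**
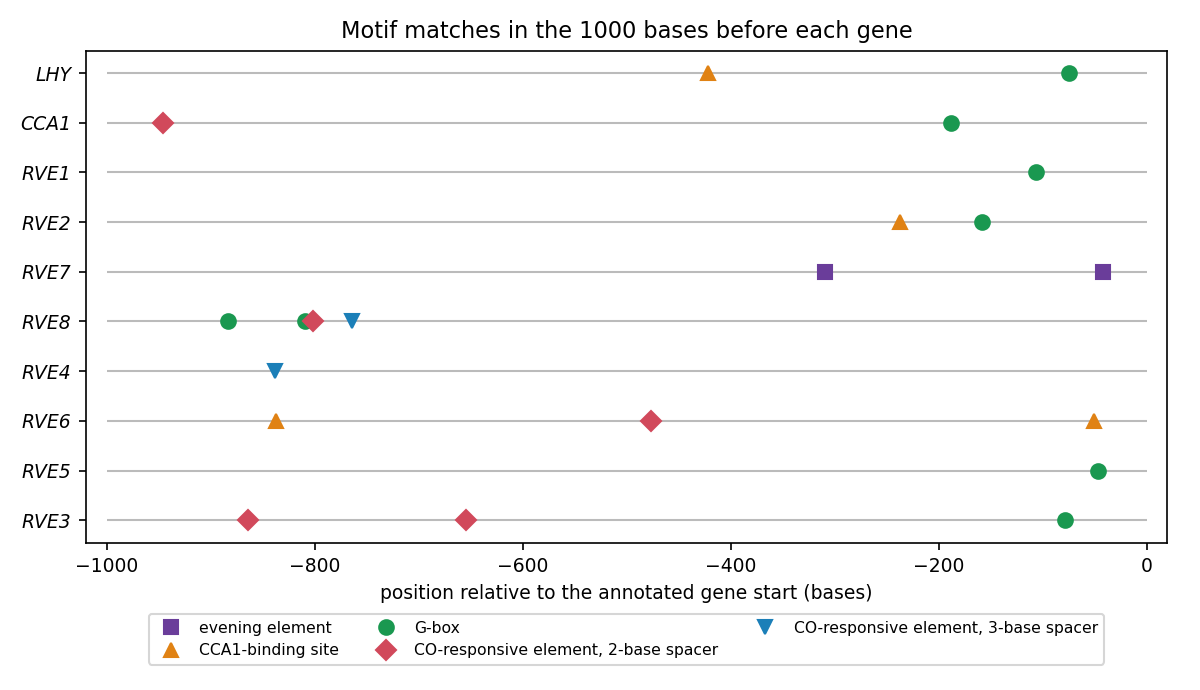
Map of the motif matches in the 1000 bases before the annotated start of each family gene, with distance from the start in bases on the x axis and 1 row per gene; each symbol is a match to a motif on either strand. The G-box matches gather within 200 bases of the start in 6 genes, the RVE8 matches lie at 883 and 809 bases, and the evening element occurs only before RVE7.

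Levels were read as CPM, counts divided by the library size on the usual scale, with TMM-scaled library sizes (TMM, the trimmed mean of M values), from libraries of 25563118 to 26636174 counts, in which 3 counts correspond to between 0.113 and 0.117 CPM before scaling. The CO gene itself followed the labels, at 9.2 ± 1.1 CPM in Col-0, 53.3 ± 6.19 in SUC2:CO and 637 ± 53.2 in 35S:CO (SD, n = 3 each), values that include native and transgenic reads alike. The leaf markers RBCS1A, LHCB1.1 and LHCB2.1 summed to 33000 to 48600 CPM in all samples, most of it RBCS1A, which passed the test in no comparison. LHCB2.1, a light-harvesting protein gene of leaf, moved in the same order as several family genes, at means of 167 CPM in Col-0, 471 in SUC2:CO and 1070 in 35S:CO (log2 change 1.5 and 2.68, edgeR adjusted p = 0.00074 and 2.4e-05). LHCB1.1 was lower in SUC2:CO, at 349 CPM against 1270 in Col-0 (log2 change -1.87, edgeR adjusted p = 0.0036). The part of these leaf genes in the family's differences was not tested. Of 7 root markers, RHD6 and EXPA7 were at 0 in all 9 samples. The 4 or 5 detected in each genotype summed to between 44.7 and 55.1 CPM in Col-0, 58.7 and 62.6 in SUC2:CO, and 63.8 and 78.7 in 35S:CO. Another root marker, CASP1 of the endodermis, was at 0 in the 35S:CO samples, and COBL9 had at most 7 reads in any sample. ADF8 did not follow the order of the sum, at means of 0.466 CPM in Col-0, 1.38 in SUC2:CO and 0.265 in 35S:CO. It was called higher in SUC2:CO than in Col-0 (log2 change 1.54, edgeR adjusted p = 0.026) and lower in 35S:CO than in SUC2:CO (-2.36, edgeR adjusted p = 0.0088). The former call was lost without Col-0 replicate 1 or 2 or any SUC2:CO replicate (adjusted p = 0.0612 to 0.0962). Most of the sum was SCR, a gene that is also expressed in leaf, at means of 39.5, 49.3 and 63.6 CPM in the same order of genotypes. SHR, also in the sum, was at means of 8.91, 9.88 and 9.07 CPM and passed in no comparison. The root sum did not overlap between genotypes and moved in the same order as several family genes. As most of it was SCR, it is no measure of root tissue alone. The part of root tissue in the family's differences was not tested. Phloem companion cell markers, 3 of 3 detected, summed to between 349 and 484 CPM in Col-0, 424 and 447 in SUC2:CO and 415 and 479 in 35S:CO. Within that sum, SUC2 itself was lower in both lines, at 174 CPM in Col-0, 124 in 35S:CO and 89.6 in SUC2:CO (edgeR adjusted p = 0.046 and 0.00099), and the proton pump gene AHA3 was higher, at 199, 292 and 313 CPM (edgeR adjusted p = 0.029 and 0.0063). The 35S:CO call of SUC2 was lost without any single sample but Col-0 replicate 3 or SUC2:CO replicate 1 (adjusted p up to 0.131). That of AHA3 was lost without 35S:CO replicate 2 or Col-0 replicate 1 or 3 (adjusted p up to 0.0998). Both were also lost in an edgeR fit of only 2 genotypes (adjusted p = 0.0957 and 0.0656), and that of SUC2 with RLE scaling in place of TMM (0.0602). The part of SUC2 and AHA3 in the family's differences was not tested. Shoot apex markers summed to 0 to 3.44 CPM in Col-0, 0.0756 to 0.283 in SUC2:CO and 0.0365 to 6.29 in 35S:CO, so they varied widely among replicates. Of these markers, STM and KNAT1 were high enough to test and passed in no comparison (lowest edgeR adjusted p = 0.086). Their part in the family's differences was likewise not tested. Flower markers summed to at most 4.31 CPM in any sample. The flower sum was higher in SUC2:CO (1.49 to 4.31) and 35S:CO (0.907 to 2.70) than in Col-0 (0.341 to 0.623). SEP3 was the only flower marker high enough to test. It was called in SUC2:CO (log2 change 2.58, edgeR adjusted p = 0.014), a call lost without Col-0 replicate 1 or SUC2:CO replicate 1 (adjusted p = 0.0501 and 0.051). In 35S:CO it overlapped Col-0 and was not called (edgeR adjusted p = 0.34).

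In 35S:CO seedlings 7 of the 10 family genes were higher than in Col-0 and none was lower, where 11.8% of the 19149 tested genes were called, 6.32% higher and 5.48% lower. These calls are at an adjusted p under 0.05 in edgeR's quasi-likelihood test with Benjamini-Hochberg adjustment over all tested genes. The 7 were LHY, CCA1, RVE1, RVE8, RVE6, RVE5 and RVE3. In SUC2:CO, 5 of 10 were higher than in Col-0 and none was lower, namely LHY, CCA1, RVE1, RVE8 and RVE3, where 32.3% of tested genes were called, 15.5% higher and 16.8% lower. The median log2 change over the 10 genes was 1.3 in 35S:CO and 0.585 in SUC2:CO, beside medians of -0.0404 and -0.0178 over all tested genes. No family gene was lower in any of the 3 comparisons by DESeq2 or limma-voom either, and 0 were lower at an unadjusted p under 0.05 in edgeR. Both comparisons use the same 3 Col-0 samples, so the resemblance between them is not independent. Nothing in the labels says that the replicates came from separate plantings, so the p-values measure the spread between these samples, which may be technical.

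In TMM-scaled CPM, levels of 6 family genes were ordered with no overlap of replicates, Col-0 lowest, SUC2:CO between and 35S:CO highest. These were LHY, CCA1, RVE1, RVE8, RVE6 and RVE3, 6 of 10, where 294 of the 19149 tested genes (1.54%) had that order. For RVE6 the order depends on the scaling. Its 7.5 CPM in SUC2:CO replicate 3 and 7.41 in Col-0 replicate 3 came from 196 and 213 reads. The former library was the larger (26636174 against 26298528 counts), so by totals alone these genotypes overlap. The order of the genotypes was also that of CO. RVE5 was between in SUC2:CO only by its mean, and RVE2, RVE4 and RVE7 had overlapping replicates in every comparison with Col-0.

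**Figure D2:**
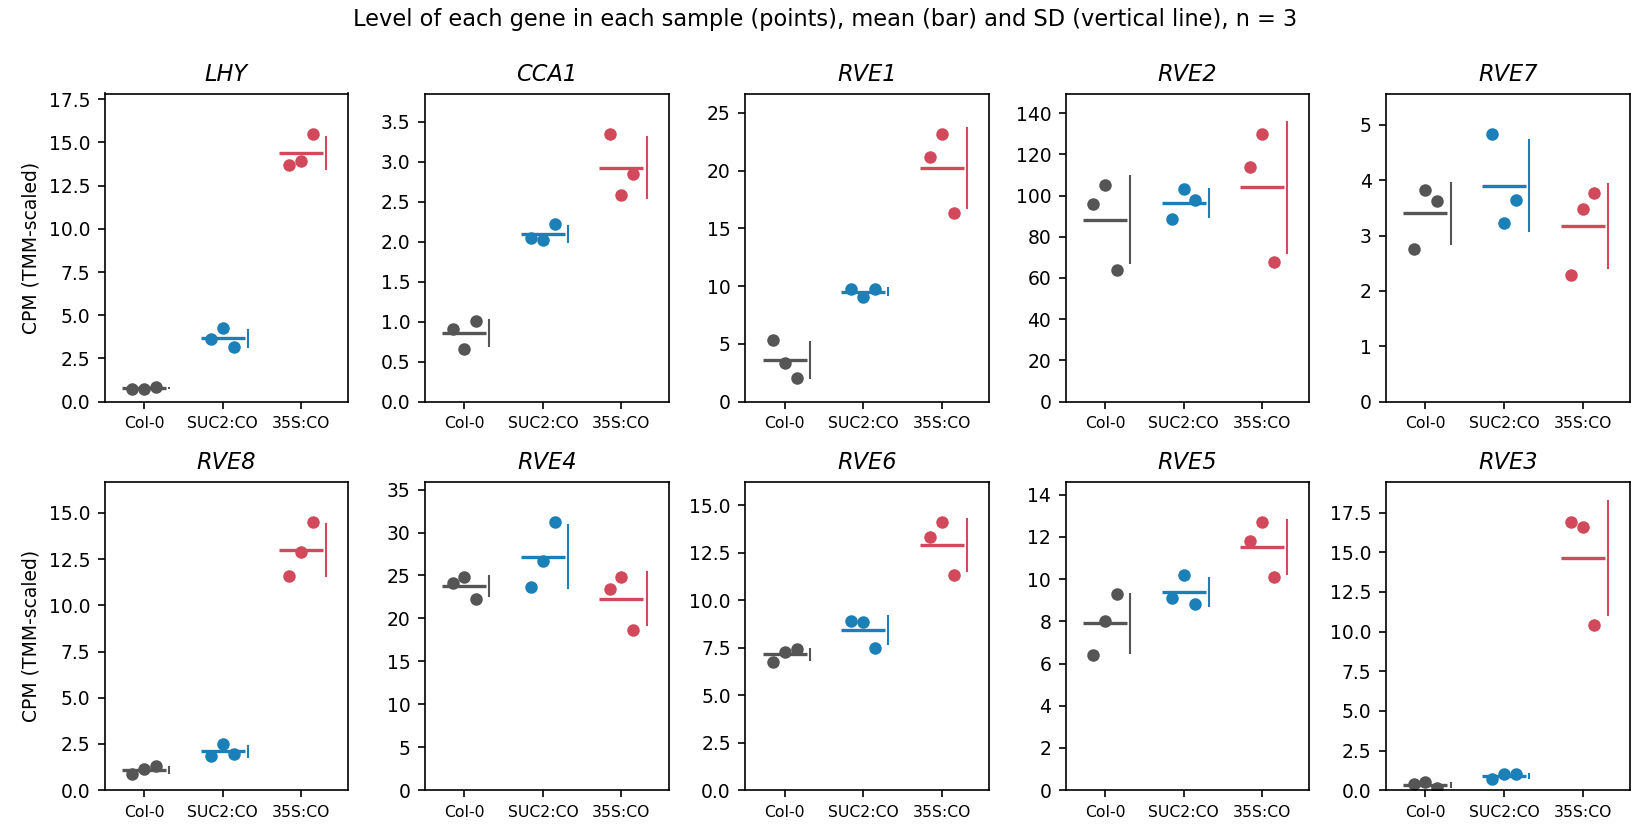
CPM (TMM-scaled, linear axis from 0, a scale per gene) of each of the 10 family genes in every sample, with 3 points per genotype, the mean as a bar and the SD as a vertical line. The 35S:CO points of LHY, RVE8 and RVE3 sit far above the other samples, whereas the points of RVE2, RVE4 and RVE7 overlap between genotypes.

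LHY, a core dawn repressor (AT1G01060, chromosome 1, 33365 to 37871, minus strand), was low in wild type at this hour. Its level was 0.719, 0.747 and 0.835 CPM in the 3 Col-0 samples, 3.63, 4.24 and 3.14 CPM in SUC2:CO, and 13.7, 13.9 and 15.5 CPM in 35S:CO. Each genotype formed a tight group, and no sample of one approached another. The Col-0 values rest on 18 to 24 reads per library, those of SUC2:CO on 82 to 105 and those of 35S:CO on 347 to 424. LHY was 18.7-fold higher in 35S:CO than in Col-0, at a log2 change (± SE) of 4.21 ± 0.17 (edgeR adjusted p = 2.6e-07). It was 4.78-fold higher in SUC2:CO than in Col-0 (log2 change 2.25 ± 0.18, edgeR adjusted p = 8.8e-05). The lines themselves differed 3.91-fold, 35S:CO being the higher (log2 difference 1.97 ± 0.15, edgeR adjusted p = 2.5e-05).

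CCA1, the partner with which LHY forms dimers (AT2G46830, chromosome 2, 19245591 to 19248915, plus strand), rose far less than LHY. Its level was 0.908, 0.664 and 1.01 CPM in Col-0, 2.04, 2.02 and 2.22 CPM in SUC2:CO, and 3.35, 2.58 and 2.84 CPM in 35S:CO. All 6 transgenic samples lay above all 3 wild-type samples. CCA1 was 3.40-fold higher in 35S:CO (log2 change 1.75 ± 0.24, edgeR adjusted p = 0.001) and 2.43-fold higher in SUC2:CO (1.27 ± 0.24, edgeR adjusted p = 0.0036). Between the lines its replicates did not overlap, but the log2 difference of 0.48 ± 0.22 did not pass the test (edgeR adjusted p = 0.16).

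The ratio of LHY to CCA1 within a sample needs no scaling between libraries, and it separated all 3 genotypes. As a log2 ratio of counts it was -0.33, 0.17 and -0.27 in Col-0, 0.82, 1.06 and 0.50 in SUC2:CO, and 2.02, 2.42 and 2.43 in 35S:CO. Counts of the pair were thus about equal in wild type, and LHY led in every transgenic sample. The mean ratio differed from Col-0 by 2.44 in 35S:CO and by 0.94 in SUC2:CO, and by 1.5 between the lines. Each difference had p = 0.1 in a two-sided exact permutation test of 3 samples against 3, the smallest p that this design allows.

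RVE8, the main activator of its subgroup (AT3G09600, chromosome 3, 2946239 to 2949017, plus strand), had 1.1 ± 0.226 CPM in wild type (SD, n = 3) and rose more in 35S:CO than in SUC2:CO. Its level was 0.870, 1.12 and 1.32 CPM in Col-0, 1.85, 2.50 and 1.95 CPM in SUC2:CO, and 11.6, 12.9 and 14.5 CPM in 35S:CO. The SUC2:CO samples lay just above wild type and the 35S:CO samples far above both. RVE8 was 11.8-fold higher in 35S:CO than in Col-0 (log2 change 3.55 ± 0.20, edgeR adjusted p = 2.2e-06) and 6.19-fold higher than in SUC2:CO (2.63 ± 0.19, edgeR adjusted p = 1.9e-05). In SUC2:CO it was 1.90-fold higher than in Col-0 (0.92 ± 0.21, edgeR adjusted p = 0.0088).

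RVE3 (AT1G01520, chromosome 1, 190408 to 192436, plus strand; also named ASG4), a member of the RVE8 subgroup, had the largest fold change of the family. Its level was 0.416, 0.498 and 0.139 CPM in Col-0, 0.681, 1.01 and 1.03 CPM in SUC2:CO, and 16.9, 16.6 and 10.4 CPM in 35S:CO. These stand for 11, 12 and 4 reads in the Col-0 libraries and 429, 425 and 285 in 35S:CO, so the wild-type level is near the floor of detection and the fold is imprecise. RVE3 was 41.7-fold higher in 35S:CO than in Col-0 by the ratio of means (log2 change 5.39 ± 0.36, edgeR adjusted p = 7.3e-06). The lines differed 16.1-fold (log2 difference 4.01 ± 0.32, edgeR adjusted p = 3.6e-05).
In SUC2:CO, RVE3 was 2.58-fold higher than in Col-0 (log2 change 1.39 ± 0.41, edgeR adjusted p = 0.028), a call that was lost without Col-0 replicate 1 (1.55, adjusted p = 0.0534), Col-0 replicate 3 (0.98, adjusted p = 0.0728), SUC2:CO replicate 2 (1.303, adjusted p = 0.0764) or SUC2:CO replicate 3 (1.28, adjusted p = 0.0871). It passed under 11 of 18 settings in all, and its log2 change stayed positive in each. RVE3 shares 65 annotated bases with AN (AT1G01510), the neighbour on the same strand. AN did not move with it, with 598 to 649 reads in the 35S:CO libraries and 527 to 738 in Col-0.

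RVE6, an activator partly redundant with RVE8 (AT5G52660, chromosome 5, 21359001 to 21362273, minus strand), rose less than RVE8 and RVE3. It was at 6.74, 7.27 and 7.41 CPM in Col-0, 8.88, 8.84 and 7.5 CPM in SUC2:CO, and 13.3, 14.1 and 11.3 CPM in 35S:CO. The 35S:CO samples stood clear, while the lowest SUC2:CO sample was next to the highest of Col-0. RVE6 was 1.80-fold higher in 35S:CO than in Col-0 (log2 change 0.85 ± 0.13, edgeR adjusted p = 0.0018) and 1.53-fold higher than in SUC2:CO (0.61 ± 0.13, edgeR adjusted p = 0.0086). Its log2 difference between SUC2:CO and Col-0 was 0.24 ± 0.13, which did not pass the test (edgeR adjusted p = 0.18).

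RVE4, the closest relative of RVE8 in sequence (AT5G02840, chromosome 5, 648648 to 651979, plus strand; also named LCL1), did not pass the test in any comparison. It was at 24.1, 24.8 and 22.3 CPM in Col-0, 23.7, 26.7 and 31.2 CPM in SUC2:CO, and 23.4, 24.8 and 18.7 CPM in 35S:CO. The genotypes overlapped throughout. Its log2 change was -0.09 ± 0.13 in 35S:CO and 0.20 ± 0.13 in SUC2:CO (edgeR adjusted p = 0.73 and 0.27). The annotated transcripts of RVE4 and RVE8 were 80.1% identical over 582 aligned bases.

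The log2 ratio of RVE8 to RVE4 counts was -4.76, -4.44 and -4.06 in Col-0, -3.66, -3.41 and -3.99 in SUC2:CO, and -1.01, -0.94 and -0.36 in 35S:CO. RVE8 thus had far fewer reads than RVE4 in wild type, and the gap was much smaller in 35S:CO. The mean ratio differed from Col-0 by 3.65 in 35S:CO and by 0.73 in SUC2:CO, each with p = 0.1 in the two-sided exact permutation test, again the smallest possible with 3 against 3.

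**Figure D3:**
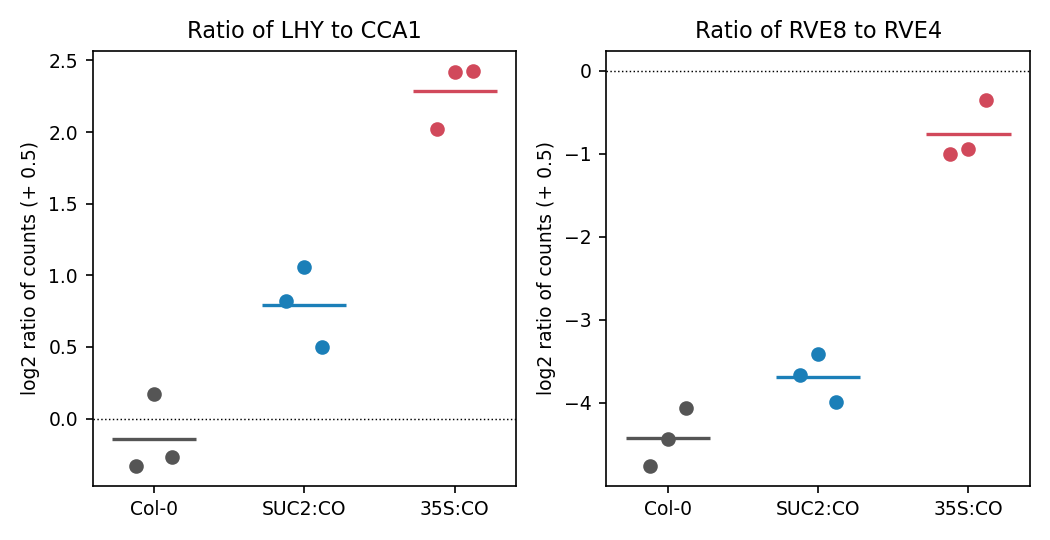
Log2 ratios within each sample of LHY to CCA1 counts and of RVE8 to RVE4 counts, with 3 points per genotype and the mean as a line. Both ratios rank the genotypes Col-0, SUC2:CO, 35S:CO with no overlap of samples, and the mean difference of 35S:CO from Col-0 is 2.44 for LHY to CCA1 and 3.65 for RVE8 to RVE4.

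RVE5, the remaining gene of the RVE8 subgroup (AT4G01280, chromosome 4, 535198 to 538098, plus strand), was at 6.40, 8.01 and 9.29 CPM in Col-0, 9.11, 10.2 and 8.84 CPM in SUC2:CO, and 11.8, 12.7 and 10.1 CPM in 35S:CO. The 35S:CO samples lay above all Col-0 samples by a narrow gap. RVE5 was 1.46-fold higher in 35S:CO (log2 change 0.54 ± 0.15, edgeR adjusted p = 0.046), and its change of 0.25 ± 0.15 in SUC2:CO did not pass (edgeR adjusted p = 0.24).
The 35S:CO call is fragile. It passed under 9 of 18 settings and was lost without 35S:CO replicate 1 or 2 (adjusted p = 0.0962 and 0.148), Col-0 replicate 1 or 2 (0.135 and 0.0749), or any of the SUC2:CO replicates, which enter only through the shared spread (0.0685, 0.0607 and 0.0634). RVE5 also overlaps AT4G01290 on the opposite strand by 681 bases. That gene held 4361 to 6215 reads per library, and whether strand was used in counting was not given in the sources used here, so RVE5 values are uncertain.

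RVE1, a regulator of auxin synthesis and seed dormancy (AT5G17300, chromosome 5, 5690225 to 5692992, minus strand), was the only gene of its subgroup called in any comparison. Its level was 5.34, 3.32 and 2.09 CPM in Col-0, 9.75, 9.09 and 9.72 CPM in SUC2:CO, and 21.2, 23.2 and 16.3 CPM in 35S:CO. The wild-type samples varied more among themselves than those of SUC2:CO, yet the 3 genotypes did not overlap. RVE1 was 5.65-fold higher in 35S:CO than in Col-0 (log2 change 2.50 ± 0.27, edgeR adjusted p = 0.00022) and 2.66-fold higher in SUC2:CO (1.41 ± 0.27, edgeR adjusted p = 0.0037). The lines differed 2.12-fold (log2 difference 1.09 ± 0.25, edgeR adjusted p = 0.015), a call that was lost without SUC2:CO replicate 2 (1.09, adjusted p = 0.0528) or SUC2:CO replicate 3 (1.14, adjusted p = 0.0531). AT5G17305, which overlaps RVE1 on the opposite strand, had 0 reads in all 9 libraries.

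RVE2 (AT5G37260, chromosome 5, 14751344 to 14753088, minus strand) was at 95.9, 105 and 64.1 CPM in Col-0, 88.6, 103 and 97.7 CPM in SUC2:CO, and 114, 130 and 67.8 CPM in 35S:CO. Replicates varied more than genotypes, with replicate 3 lowest in Col-0 and in 35S:CO. Its log2 change was 0.23 ± 0.23 in 35S:CO and 0.13 ± 0.23 in SUC2:CO (edgeR adjusted p = 0.59 and 0.71).

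RVE7 (AT1G18330, chromosome 1, 6305814 to 6308243, minus strand) was at 2.76, 3.82 and 3.62 CPM in Col-0, 4.84, 3.23 and 3.64 CPM in SUC2:CO, and 2.29, 3.48 and 3.76 CPM in 35S:CO. All genotypes overlapped, and the log2 changes of -0.10 ± 0.24 in 35S:CO and 0.20 ± 0.24 in SUC2:CO did not pass (edgeR adjusted p = 0.85 and 0.55). RVE7 is nearly identical to AT3G10113, at 99.8% over 615 aligned bases, and that locus had 6 reads in all libraries together. Reads that match both loci may have been left out in counting, so RVE7 values are uncertain. Other pairs in the family were between 69.8% and 83.2% identical, in aligned stretches of at most 582 bases.

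**Figure D4:**
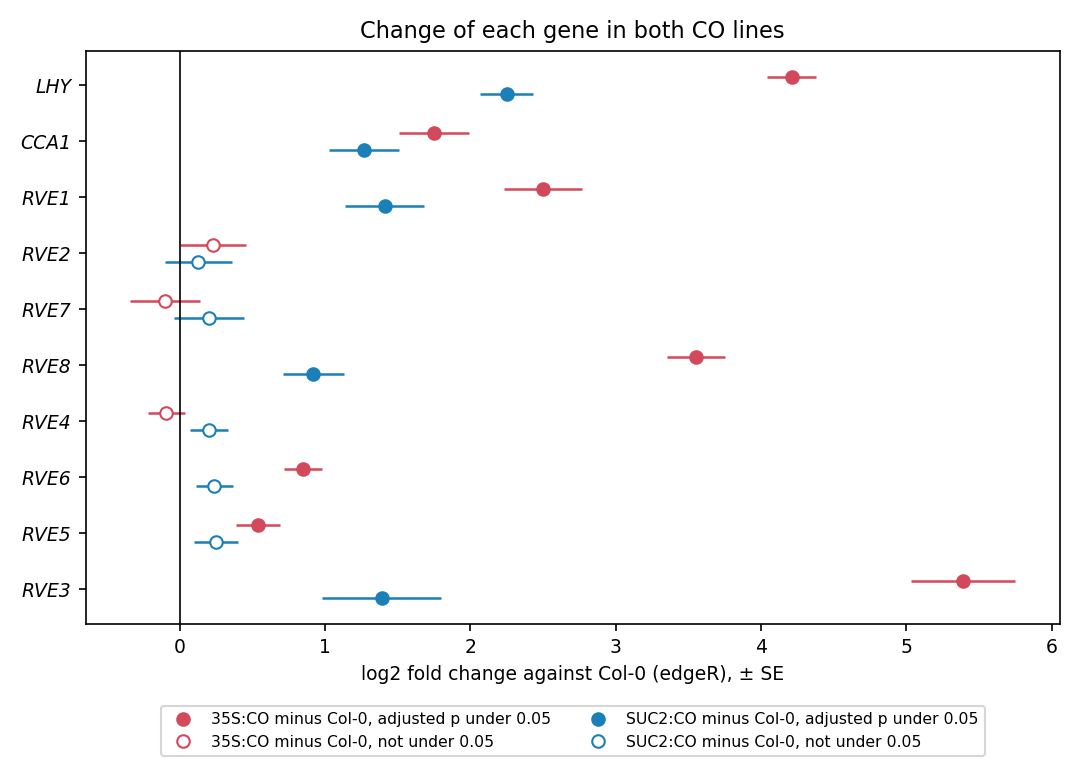
Log2 fold change against Col-0 (edgeR estimate ± SE) of each family gene in 35S:CO and SUC2:CO, with 3 replicates per genotype; filled points passed an adjusted p of 0.05. RVE3 (5.39), LHY (4.21) and RVE8 (3.55) lead in 35S:CO, and RVE2, RVE4 and RVE7 have open points near 0 in both lines.

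Set side by side directly, 35S:CO exceeded SUC2:CO for 5 of 10 family genes and fell below it for none, where 18.8% of tested genes were called, 9.27% higher and 9.5% lower. The 5 were LHY, RVE1, RVE8, RVE6 and RVE3. The median log2 difference over the 10 genes was 0.545, beside 0.00599 over all tested genes. The excess was not uniform, within subgroups or between them. In the RVE8 subgroup the log2 difference was 4.01 for RVE3, 2.63 for RVE8 and 0.61 for RVE6, while RVE5 (0.29) and RVE4 (-0.29) did not pass. It was 1.97 for LHY, against 0.48 for CCA1, which did not pass. These differences mix the strength and place of the promoter, the HA tag and the co-10 allele, which cannot be told apart here.

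Levels per length put the changes in proportion. As CPM divided by kilobases of annotated exon (RPKM), RVE2 was the most abundant family transcript in each genotype, at 90.3 ± 22.0 in Col-0, 98.5 ± 7.5 in SUC2:CO and 106 ± 32.7 in 35S:CO (SD, n = 3 each). RVE4 came next, at 11.3 ± 0.609, 12.9 ± 1.81 and 10.6 ± 1.51 RPKM. Below them, the Col-0 order of mean levels was RVE6 (4.32 RPKM), RVE5 (3.52), RVE1 (1.78), RVE7 (1.68), RVE8 (0.471), CCA1 (0.316), LHY (0.224) and RVE3 (0.221). In that order RVE6 and RVE5, RVE1 and RVE7, and LHY and RVE3 had overlapping replicates, and the other neighbours did not.

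In SUC2:CO the order after RVE4 was RVE6 (5.08 RPKM), RVE1 (4.72), RVE5 (4.18), RVE7 (1.93), LHY (1.07), RVE8 (0.897), CCA1 (0.769) and RVE3 (0.572). Overlap joined RVE6 with RVE1, RVE1 with RVE5, LHY with RVE8 and RVE8 with CCA1. In 35S:CO the order after RVE4 was RVE1 (8.08 to 11.5 RPKM), RVE3 (9.22), RVE6 (7.78), RVE8 (5.55), RVE5 (5.13), LHY (4.19), RVE7 (1.57) and CCA1 (1.07). There the levels of RVE4, RVE1, RVE3 and RVE6 overlapped from one to the next, as did those of RVE8, RVE5 and LHY, and those of RVE7 and CCA1. RVE3 thus went from the lowest mean level of the family in Col-0 and SUC2:CO to the fourth in 35S:CO, and CCA1 became the lowest.

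Summed by subgroup, the repressor pair LHY and CCA1 went from 0.540 ± 0.0761 RPKM in Col-0 to 1.84 ± 0.127 in SUC2:CO and 5.27 ± 0.283 in 35S:CO. The RVE8 subgroup summed to 19.8 ± 0.774, 23.6 ± 1.55 and 38.3 ± 4.72 RPKM. Both sums separated the genotypes with no overlap, but the first changed far more in proportion. The RVE1 subgroup, which RVE2 dominates, summed to 93.7 ± 22.5, 105 ± 6.94 and 117 ± 34.3 RPKM, and its replicates overlapped. RVE2 made up 78.6 ± 4.21% of the family's RPKM in Col-0, 75.4 ± 1.01% in SUC2:CO and 64.9 ± 5.31% in 35S:CO. RVE3 made up 0.184% in Col-0, 0.435% in SUC2:CO and 5.72% in 35S:CO.

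G-boxes did not divide the family cleanly by response. Of the 7 genes with one, 6 were called in 35S:CO, and RVE2, with a G-box at 158 bases, was not. Of the 3 without one, RVE6 was called, and RVE4 and RVE7 were not. Over all tested genes 11.8% were called in 35S:CO. RVE3, LHY and RVE1 carry a G-box within 106 bases of the start, while RVE8 rose 11.8-fold with its G-boxes at 883 and 809 bases. RVE5, with the nearest G-box at 47 bases, rose only 1.46-fold, in a call that passed under 9 of 18 settings. CCA1, with a G-box at 188 bases, rose 3.40-fold. With 10 genes these counts are a description only.

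Genes beside the strongest responders on the chromosome were not called in 35S:CO. Among the 6 nearest tested genes of each, none passed the edgeR test there for LHY (log2 changes -0.20 to 1.6), RVE8 (-0.57 to 0.23) or RVE3 (-0.23 to 1.31). Over the 60 neighbours of all 10 genes, 3 (5.0%) were called in 35S:CO, 1 each beside RVE1, RVE4 and RVE6, where 11.8% of all tested genes were called. In SUC2:CO 16 of the 60 (26.7%) were called, against 32.3% of all tested genes. LHY had none there, RVE8 had AT3G09630 (log2 change -1.2, edgeR adjusted p = 0.0016) and RVE3 had BPS1 (0.42, edgeR adjusted p = 0.017), and RVE5 had the most, at 4. The called neighbour of RVE4 in 35S:CO is PRR7, itself a clock gene. Neighbours were looked at after the family's values were known.

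Partners and targets of the family were read from lists of clock genes. Beside the counts below, 6.32% of all tested genes were called higher and 5.48% lower in 35S:CO. In SUC2:CO these shares were 15.5% and 16.8%. The LNK coactivators, which work with RVE8 and RVE4, were higher in 3 of 4 cases in 35S:CO and in 2 of 4 in SUC2:CO, with none lower. LNK1 had a log2 change of 0.99 ± 0.15 in 35S:CO and 1.32 ± 0.15 in SUC2:CO (edgeR adjusted p = 0.0024 and 0.00045). LNK2 rose by 0.66 ± 0.18 and 1.34 ± 0.18 (edgeR adjusted p = 0.043 and 0.00076), and unlike RVE8 it was lower in 35S:CO than in SUC2:CO (-0.68 ± 0.18, edgeR adjusted p = 0.025). LNK4 rose by 1.78 ± 0.40 in 35S:CO (edgeR adjusted p = 0.017), and LNK3, at most 0.58 CPM in mean, passed in neither line. The 35S:CO calls rested on few samples. That of LNK2 was lost without 35S:CO replicate 2 or 3, Col-0 replicate 1 or 3, or SUC2:CO replicate 1 or 2 (adjusted p = 0.052 to 0.132). It was also lost with limma-voom (adjusted p = 0.0534) and in an edgeR fit of only 2 genotypes (0.0791). That of LNK4 was lost without 35S:CO replicate 2 or 3 or Col-0 replicate 1 or 3 (adjusted p = 0.0507 to 0.0704). The difference of LNK2 between the lines was lost without 35S:CO replicate 1 or 3 or SUC2:CO replicate 2 or 3 (adjusted p = 0.0555 to 0.126). The median of the list was 1.03 in 35S:CO and 1.32 in SUC2:CO.

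The PRR genes were PRR3 and the repressors of CCA1 and LHY named above, PRR9, PRR7, PRR5 and TOC1. They were higher in 3 of 5 cases in 35S:CO and in 5 of 5 in SUC2:CO, with medians of 1.19 and 0.768. The latter count was 4 of 5 when libraries were scaled by totals alone. Among all tested genes 6.32% were called higher in 35S:CO and 15.5% in SUC2:CO. PRR3 had a log2 change of 0.15 ± 0.10 in 35S:CO and 0.77 ± 0.10 in SUC2:CO (edgeR adjusted p = 0.38 and 0.00073). PRR5, a target that RVE8 activates, was at 14.6 ± 0.718 CPM in Col-0, 22.4 ± 1.63 in SUC2:CO and 77.2 ± 4.73 in 35S:CO (SD, n = 3 each). It was 5.28-fold higher in 35S:CO (log2 change 2.40 ± 0.10, edgeR adjusted p = 2.6e-07) and 1.53-fold higher in SUC2:CO (0.62 ± 0.09, edgeR adjusted p = 0.0012), the same ranking of the lines as RVE8. PRR7 rose by 1.19 ± 0.09 and 0.98 ± 0.09 (edgeR adjusted p = 2.3e-05 and 0.00025). PRR9 had 0, 0 and 3 reads in Col-0, and set against 3 counts per library it was at least 5.2-fold higher with the 35S promoter and at least 8.84-fold higher with the SUC2 promoter. TOC1, the evening gene that CCA1 and LHY repress, had a log2 change of -0.07 ± 0.09 in 35S:CO and 0.30 ± 0.09 in SUC2:CO (edgeR adjusted p = 0.69 and 0.025). The latter call was lost without Col-0 replicate 1 or SUC2:CO replicate 3 (adjusted p = 0.0809 and 0.0985), and with library totals alone (0.0621).

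Evening genes that the family controls were called lower more often than higher in 35S:CO, and the reverse in SUC2:CO. Of 10, 1 was called higher and 4 lower in 35S:CO, whereas 4 were called higher and 1 lower in SUC2:CO. Shares over all tested genes were 6.32% higher and 5.48% lower in 35S:CO, and 15.5% and 16.8% in SUC2:CO. Directly compared, 4 of the 10 evening genes were lower in 35S:CO than in SUC2:CO (ELF4, FKF1, COR27 and BOA) and none was higher. Between the lines 9.5% of all tested genes were lower and 9.27% higher. Medians over the 10 evening genes were -0.205 in 35S:CO, 0.337 in SUC2:CO and -0.359 for 35S:CO against SUC2:CO. ELF4, a subunit of the evening complex, was at 33.6 ± 4.0 CPM in Col-0, 26.5 ± 3.65 in SUC2:CO and 12.8 ± 2.27 in 35S:CO. Its log2 change was -1.39 ± 0.15 in 35S:CO (edgeR adjusted p = 0.00024) and -0.34 ± 0.15 in SUC2:CO, which did not pass (edgeR adjusted p = 0.10). COR27 differed between the lines by -0.76 ± 0.12 (edgeR adjusted p = 0.0024), and the blue-light receptor gene FKF1 by -0.78 ± 0.11 (edgeR adjusted p = 0.0015). GI, which works with FKF1, went the other way from ELF4 and rose in both lines, by 1.05 ± 0.15 and 1.28 ± 0.15 (edgeR adjusted p = 0.0014 and 0.00046). GRP8, an RNA-binding protein of a clock output loop, fell in both lines, by 0.66 and 0.51 on the log2 scale (edgeR adjusted p = 0.0019 and 0.0038). Among the counts above, 3 calls were lost when a sample was left out. FKF1 in 35S:CO was lost without 35S:CO replicate 1 or 3 or Col-0 replicate 1 or 2 (adjusted p = 0.0507 to 0.0765). COR27 in SUC2:CO was lost without Col-0 replicate 1 or 3 or SUC2:CO replicate 2 or 3 (0.0797 to 0.123). BOA between the lines was lost without 35S:CO replicate 2 or 3 or SUC2:CO replicate 2 or 3 (0.0586 to 0.158). In an edgeR fit of only 2 genotypes FKF1 (0.0788) and COR27 (0.0507) were lost, and with the replicate block added BOA (0.0562). COR27 was lost with library totals too (0.0583).

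**Figure D5:**
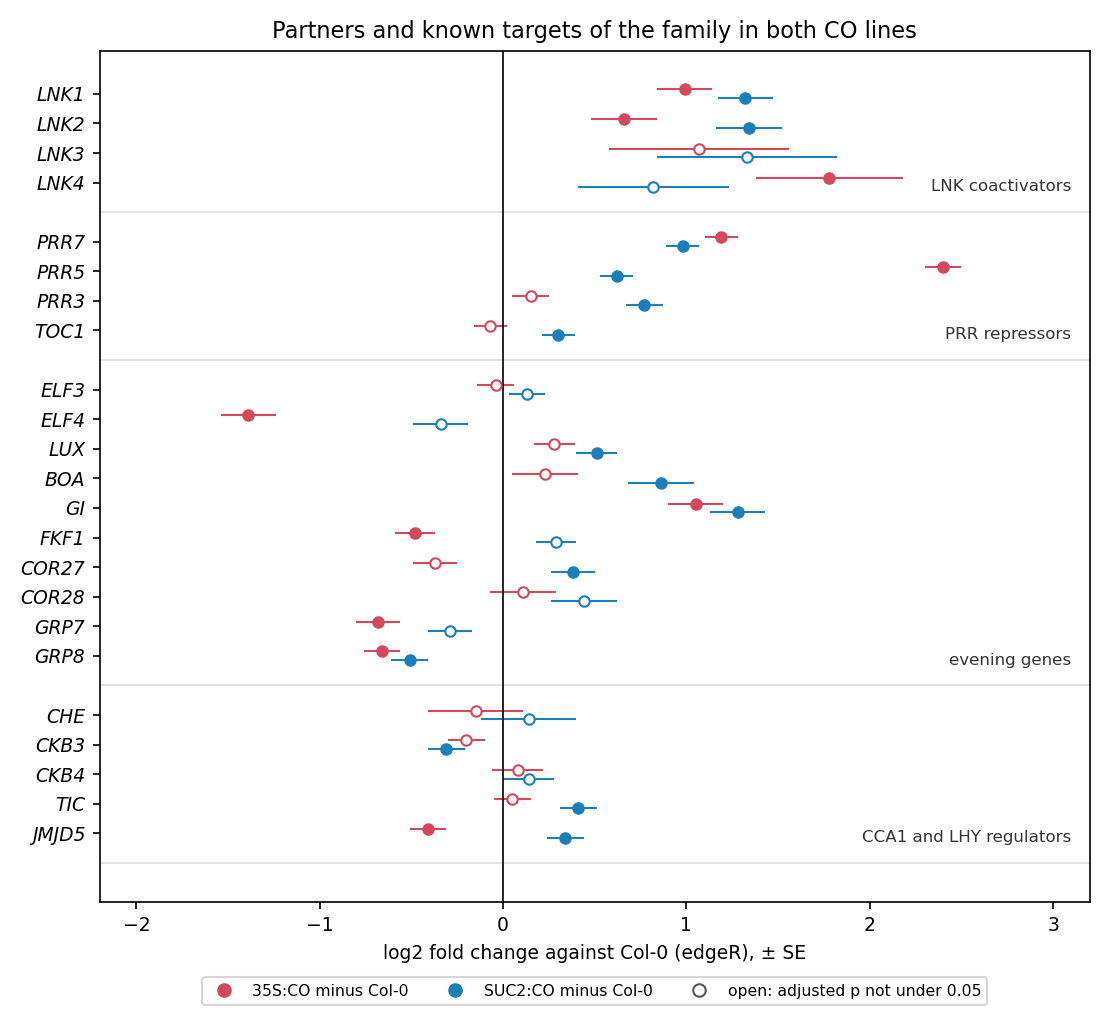
Log2 fold change against Col-0 (edgeR estimate ± SE, 3 replicates per genotype) of LNK, PRR, evening and regulator genes in 35S:CO and SUC2:CO, with open points where the adjusted p was not under 0.05. PRR9, with 3 reads or fewer in each Col-0 library, is not drawn; PRR5 stands out in 35S:CO at 2.40 and ELF4 at -1.39.

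Of 5 other regulators of CCA1 and LHY, 1 was called in 35S:CO, 3 in SUC2:CO and 2 between the lines. The shares of all tested genes called there were 11.8%, 32.3% and 18.8%. JMJD5, a histone demethylase gene, fell in 35S:CO by 0.41 on the log2 scale (edgeR adjusted p = 0.021) and rose in SUC2:CO by 0.34 (edgeR adjusted p = 0.022), a difference of -0.75 ± 0.10 between the lines (edgeR adjusted p = 0.00063). TIC rose by 0.41 in SUC2:CO (edgeR adjusted p = 0.014), and CKB3, a subunit of the kinase CK2 that phosphorylates CCA1, had a log2 change of -0.31 there (edgeR adjusted p = 0.042). The call of CKB3 was lost with DESeq2, no filter, library totals, a fit of 2 genotypes and the replicate block in either fit (adjusted p = 0.0527 to 0.0991). It was also lost without any single sample other than Col-0 replicate 1 or SUC2:CO replicate 1 (adjusted p = 0.0554 to 0.143). The SUC2:CO call of TIC was lost without Col-0 replicate 1 or SUC2:CO replicate 3 (adjusted p = 0.0574 and 0.0531). That of JMJD5 was lost without Col-0 replicate 1 or 3 or SUC2:CO replicate 2 or 3 (adjusted p = 0.0514 to 0.0806). The 35S:CO call of JMJD5 was lost without 35S:CO replicate 1 or 3 or Col-0 replicate 1 or 2 (adjusted p = 0.0506 to 0.065). It was also lost in an edgeR fit of only 2 genotypes (adjusted p = 0.0586). CHE and CKB4 passed in no comparison. Among 4 output genes reported as bound by CCA1 or RVE1, YUC8 was too low to test, and LHCB1.1 was the only one called, at a log2 change of -1.87 ± 0.36 in SUC2:CO (edgeR adjusted p = 0.0036). LHCB1.1 has near-identical copies between which reads may be split, so its value is uncertain.

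More distant single-MYB relatives of the SHAQKYF type did not move as a group. Of 6 tested, MYBD was the only one called in 35S:CO, at 8.81 ± 2.65 CPM in Col-0, 11.1 ± 1.21 in SUC2:CO and 25.6 ± 4.80 in 35S:CO (log2 change 1.54 ± 0.21, edgeR adjusted p = 0.0011). KUA1 was the only one called in SUC2:CO, at 0.38 ± 0.11 (edgeR adjusted p = 0.022), a call lost when libraries were scaled by totals alone and without Col-0 replicate 1 or SUC2:CO replicate 2 or 3 (adjusted p = 0.0523 to 0.0911). The list's median was 0.136 in 35S:CO and 0.224 in SUC2:CO. Over all tested genes, 11.8% were called in 35S:CO and 32.3% in SUC2:CO.

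For the genes with the clearest pattern, those most like each were sought among 19139 tested genes outside the family, by the root mean square difference of centred log2 CPM over the 9 samples. For LHY these were AT3G50560 (0.339), AT1G51090 (0.362) and AT2G27420 (0.365), where LHY itself varied by 1.717 about its mean. AT3G50560 was at 2.17 CPM in Col-0, 7.82 in SUC2:CO and 38.8 in 35S:CO. For CCA1 they were PSK5, which encodes a phytosulfokine peptide precursor (0.149), the calcium-dependent kinase gene CPK15 (0.210) and the potassium transporter gene KUP6 (0.215), about a variation of 0.762. PSK5 was at 5.56 CPM in Col-0 and 21.1 CPM in 35S:CO. The genes most like RVE1 were AT2G15020 (0.281), BT1 (0.302) and the ammonium transporter gene AMT1;2 (0.332). Those most like RVE8 were AT2G28200 (0.299), the plastid sigma factor gene SIGE (0.300) and UP6 (0.305). Within the family, LHY was nearer to RVE8 (0.544) than to CCA1 (1.026), and CCA1 was nearest to RVE6 (0.516) and RVE1 (0.539). These are descriptions over 9 samples that share their libraries.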

How the data were processed

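RNA of 9 seedling samples, 3 per genotype, was analysed from a table of counts deposited by the authors, unnormalized whole reads in a column per sample. Libraries kept strand and RNA came from an RNeasy kit, per the labels' protocols. Per the submitters' processing notes, FastQC, STAR, featureCounts, limma and the build TAIR10 were used. Versions, the annotation release and the strand setting were not given in the sources used here. Reads of overlapping genes or near-identical copies may therefore be split or lost.

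Counts were tested with edgeR 4.0.16 in R 4.3.3. The filterByExpr filter kept 19149 genes, libraries were scaled by TMM, 1 quasi-likelihood model was fitted to all 9 samples, and two-sided p-values were adjusted by Benjamini-Hochberg over all tested genes, with a call under 0.05. Each SE is the log2 change divided by the root of F. Fold changes are ratios of mean CPM. The ratios of LHY to CCA1 and RVE8 to RVE4 used counts plus 0.5 and two-sided exact permutation tests. RPKM used exon unions of TAIR10.1, and 32548 gene identifiers matched that annotation. Transcript identity was found with blastn 2.17.0. Motifs were searched before the most upstream annotated start.

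Total counts were 25563118 to 26636174 per library, and 21444 to 22326 genes had a count. The floor of 3 counts covers counting error only. No replicates were identical, and pairs of replicates differed beyond sampling noise (chi-square per degree of freedom 8.38 to 32.8). Same-numbered samples of 35S:CO and Col-0 deviated together (correlations 0.213 to 0.425 over genes), so their numbers pair them, as found from the data and stated by no label. For SUC2:CO they did not pair (correlations with Col-0 -0.1 to 0.096, with 35S:CO -0.099 to 0.05). The main fit leaves the pairing of 35S:CO with Col-0 out, and printed p-values and SEs come from it unless another setting is named.

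In simulated counts for 35S:CO against Col-0, over 19017 genes, edgeR recovered 88% of 2-fold and 100% of 4-fold changes, with 4.57% of calls false. The simulation changed 200 genes above a minimum mean count, gave all genes the same dispersion and held no pairing of samples. Its rates therefore need not hold for these replicates or for genes with low counts. Alternatives were the filter, the scaling, DESeq2 1.42.0, limma-voom (limma 3.58.1), fits of only 2 genotypes, a replicate block, leaving out each sample, stricter thresholds and a pseudocount of 1. Named genes are the 10 family genes, CO, called genes of the lists, and the 3 genes most like LHY, CCA1, RVE1 and RVE8. The family and the lists were chosen with earlier results of these data known. No sample was left out.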

Additional observations from a re-analysis of the deposited data

Results flagged for a closer look

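Effects against Col-0 differed between the lines for 5 of 10 family genes, by the direct edgeR test of 35S:CO against SUC2:CO, which share the Col-0 reference. In that test 18.8% of all tested genes were called, 9.27% higher and 9.5% lower. The log2 effect of 35S:CO exceeded that of SUC2:CO by 1.97 for LHY, 1.09 for RVE1, 2.63 for RVE8, 0.61 for RVE6 and 4.01 for RVE3, with 3 replicates per line and every 35S:CO sample above every SUC2:CO sample for all 5. For CCA1 the difference of 0.48 did not pass the test. Causes were not tested.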

How the results depend on the processing

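Calls of LHY, CCA1 and RVE1 against Col-0, and of RVE8, RVE3 and RVE6 in 35S:CO, passed under all 18 settings, and CCA1 between the lines passed under none. With the replicate block the fit of all samples called 3033 genes in 35S:CO, 6902 in SUC2:CO and 4348 between the lines, with 7, 5 and 5 family genes, and changed no call in the family. In SUC2:CO, a fit of 2 genotypes called 4 family genes without the block (RVE3 lost, 1.38, adjusted p = 0.0629) and 3 with it (RVE8 lost too, 0.93, adjusted p = 0.0556). Within same-numbered pairs the mean ratio differences equal the unpaired ones by arithmetic, so they are no check. The 3 pairs allow no sign-flip p below 0.25. Of all genes in 35S:CO, a fit of 2 genotypes called 1260, an adjusted p under 0.01 925 and a log2 change of at least 1 857; the latter 2 gave 3012 and 1784 in SUC2:CO, and 1413 and 1193 between the lines. Leaving out 1 sample gave 1159 to 2167, 3572 to 6615 and 1584 to 4110 genes, with the lowest counts without 35S:CO replicate 2, SUC2:CO replicate 3 and SUC2:CO replicate 3, and 6 to 7, 4 to 5 and 4 to 5 family genes. The sign of 4 uncalled values turned when a sample was left out: RVE7 (-0.237 to 0.123) and RVE4 (-0.132 to 0.0236) in 35S:CO, and RVE2 in SUC2:CO (-0.0607 to 0.261) and between the lines (-0.0437 to 0.333). The cause was not tested. Ratio differences for LHY to CCA1 ranged over 2.34 to 2.59, 0.80 to 1.09 and 1.35 to 1.63, and for RVE8 to RVE4 over 3.44 to 3.83, 0.57 to 0.92 and 2.71 to 3.05. Low counts limit RVE3 and LHY in Col-0.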

Other observations

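Outside the rule for named genes, RVE3 was compared with the other genes after its values were seen. The genes most like RVE3 over the 9 samples were AT1G24580, AT1G62510 and AT3G24460, with root mean square differences of 0.467, 0.478 and 0.486 in centred log2 CPM, where RVE3 itself varied by 2.352. Within the family RVE3 was about as far from LHY (1.003) as from RVE8 (1.006). Among chromosomal neighbours, AT5G52730 near RVE6 had a log2 change of 5.33 in 35S:CO (edgeR adjusted p = 0.0055), and AT5G17270 near RVE1 had -0.82.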
